A study of Mus musculus with 8 samples.

Results

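Decidual marker genes are the genes whose products identify the decidua, the tissue that the lining of the mouse uterus forms around an implanting embryo. The list held 10 genes, chosen by name, and 9 of them, on 10 probe sets, were measured among 19505 named genes and 22206 probe sets. Il11ra1, the receptor of interleukin 11, had no probe set under its symbol or gene ID in the annotation used here, so no value is given for it. Prl8a2 alone had a pair of probe sets, and the brighter of them stands for the gene. The study took uteri from 8 wild-type females of the inbred strain C57BL/6J at day 4.5 of pseudopregnancy, the state induced by mating to vasectomised males, in which no embryo is present. The ecig group was 4 mice exposed to electronic cigarette aerosol (propylene glycol and vegetable glycerin at 55 to 45 parts with 24 mg/mL nicotine, no flavouring, heated at 245 °C, 2 puffs per minute for 3 hours a day) over the 4 weeks that preceded mating (5 days in each) and daily afterwards until the morning of collection. The sham group was 4 mice kept in room air. All 8 were pseudopregnant. The labels call the arrays biological replicates, taken here as 1 mouse each. The uterus was profiled in bulk, so fewer cells of a type and less RNA per cell cannot be told apart.

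Decidualization is the change of uterine stromal fibroblasts into large secretory cells, many of which become polyploid. In mice it requires progesterone and starts when an embryo attaches or when the lining is stimulated artificially. A pseudopregnant uterus that received neither is therefore used as a picture of the stroma before that change. The files hold no decidualised uterus, so how far these genes would rise on decidualization was not measured. The comparison asks whether aerosol exposure altered the level of decidual genes at this stage.

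The tissue label was checked on 8 genes of uterine identity, 10 measured stromal genes and 7 measured trophoblast genes. Hoxa10, a homeobox gene of the uterus, averaged 11.1 log2 units over the 8 arrays, and the stromal genes Nr2f2 and Dcn averaged 11.7 and 12.8, while the median probe set of an array lay at 7.08. Of the 7 trophoblast genes, 6 lay in the low signal range defined in the next paragraph, and Hand1 was the exception. The mean correlation of an array with the 7 others was 0.982 for ecig mouse 2 and 0.977 for ecig mouse 4, and 0.986 to 0.987 for the other 6 mice, so member results are also given without those 2 mice where that changes their direction.

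Of the 9 measured markers, 6 gave a signal within the range of odour and pheromone receptor genes, and 3 gave a signal above it. The low range was taken from 1414 probe sets for olfactory and vomeronasal receptors, the receptors of the nose for odours and pheromones. Their median was 4.35 log2 units and their 95th percentile 6.15, below which 34.2% of all probe sets lay. Prl8a2, Prl3c1, Tdo2, Dio3, Alpl and Il11 had means below that 95th percentile, while Cdkn1c, Snai2 and Ccnd3 had means above the receptors' 99th percentile of 6.83. Probes differ in how strongly they bind, so a low signal is a bound on detection and levels of different genes are not ranked as RNA amounts.

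**Figure D1:**
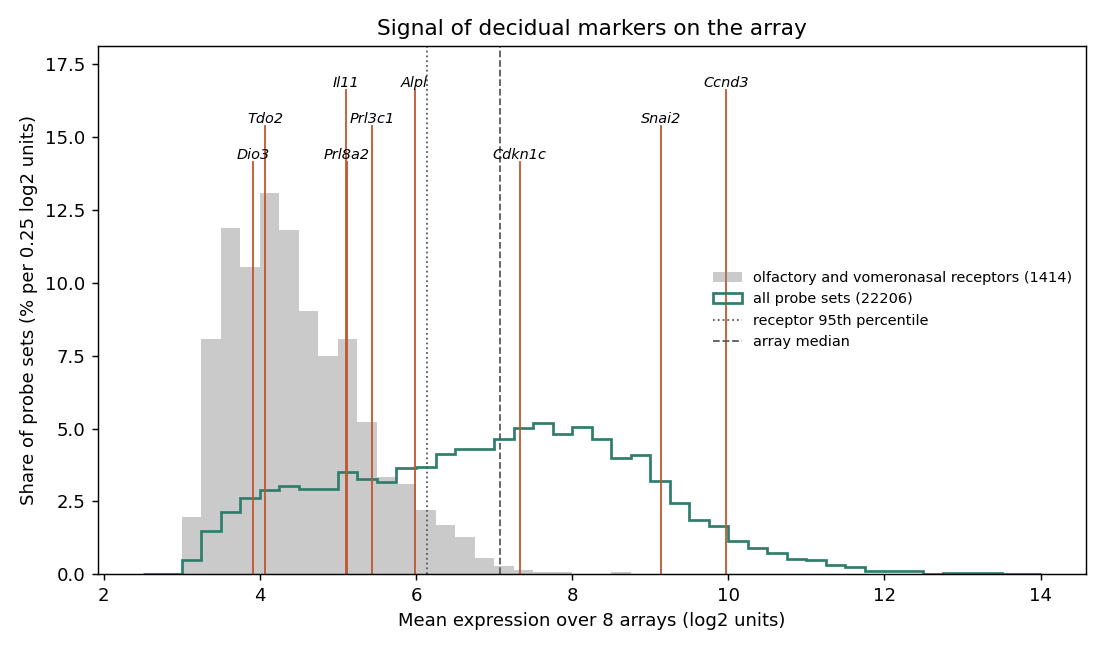
Share of probe sets (vertical axis, percent per bin) by mean expression over 8 arrays (horizontal axis, log2 units) for 1414 olfactory and vomeronasal receptor probe sets (grey) and all 22206 probe sets (green outline). Orange lines mark the means of the 9 measured decidual markers, 6 of which lie left of the receptors' 95th percentile (6.15, dotted) and 3 right of the array median (7.08, dashed).

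Levels of other cell types' markers were also compared between the groups. List means of macrophage, natural killer cell, ovary and mesothelium genes overlapped between the groups. Of their genes, only the macrophage gene Cd163, in the low range, had an unadjusted p under 0.05 in limma (0.0262). It averaged 5.63 in ecig mice and 5.40 in sham mice, and 2 of 6 macrophage genes were higher in ecig mice. The mean of 7 neutrophil and eosinophil genes, 6 of them in the low range, spanned 5.13 to 5.37 in ecig mice and 5.40 to 5.58 in sham mice, without overlap. The genes went both ways, with 3 of 7 (S100a8, Epx and Prg2) higher in ecig mice. The lower mean was led by Retnlg (6.89 in ecig mice and 7.76 in sham mice) and Ccr3 (4.16 in ecig mice and 4.74 in sham mice). Their unadjusted p in limma was 0.00255 and 0.00254, and no probe set passed after adjustment. Retnlg was the only gene of the list above the low range, and Ccr3 lay in it. Groups failed to overlap at 2.73% of single probe sets, a share not computed for list means. Smooth muscle genes, none in the low range, had lower means in ecig mice for 7 of 7, and their mean spanned 10.74 to 11.41 in ecig mice and 11.05 to 11.54 in sham mice. Endothelial genes, none in the low range, had higher means in ecig mice for 6 of 6, and their mean spanned 8.93 to 9.36 in ecig mice and 8.70 to 9.35 in sham mice. Some of these differences were slight, as for Tie1 (7.959 in ecig mice and 7.954 in sham mice). The smallest unadjusted p in limma was 0.130 among the smooth muscle genes (Lmod1) and 0.245 among the endothelial genes (Emcn).

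The mean of 6 adipocyte genes, 5 of them in the low range, spanned 5.12 to 6.74 in ecig mice (high in ecig mice 1 and 2) and 5.15 to 5.61 in sham mice. Means were higher in ecig mice for 5 of the 6. Only Cidec, in the low range, had an unadjusted p under 0.05 in limma (0.0196). Of 11 epithelial genes, none lay in the low range by its mean over the 8 mice. Their mean spanned 7.84 to 9.35 in ecig mice (highest in ecig mouse 4) and 8.12 to 8.27 in sham mice. Ecig mice 1 and 2 (7.84 and 7.93) lay below every sham mouse, and ecig mice 3 and 4 (8.48 and 9.35) lay above every sham mouse. The members of this list went both ways, with 5 of 11 higher in ecig mice. The gland secretory genes Prss28 (7.12 in ecig mice and 5.23 in sham mice), Prss29 (8.48 in ecig mice and 7.10 in sham mice) and Spink1 (8.65 in ecig mice and 7.69 in sham mice) were highest above sham. None of these secretory genes had an unadjusted p under 0.05 in limma (0.235, 0.175 and 0.455). Prss28 averaged 6.18 over the 8 mice, just above the low range, and its sham mean lay inside that range. Its difference therefore describes probe signal and does not bound a difference in RNA. The structural genes of the epithelium went both ways. The keratins Krt8 (8.75 in ecig mice and 9.14 in sham mice) and Krt19 had lower means in ecig mice. So did the junction genes Cldn7 (7.85 in ecig mice and 8.34 in sham mice) and Cdh1, the gland factor Foxa2, and Lif. The keratin Krt18 (9.10 in ecig mice and 8.98 in sham mice) and Epcam had slightly higher means in ecig mice. Of the 11 genes, only Krt8 and Cldn7, both lower in ecig mice, had an unadjusted p under 0.05 in limma (0.0449 and 0.00357). After adjustment no probe set of the array passed. The part of these markers in the results was not tested.

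Sequences upstream of the starts of 4 markers are shown, 3 of low signal (Prl3c1, Dio3 and Il11) and 1 of high signal (Ccnd3). No window was matched for Prl8a2, Cdkn1c or Snai2, so Ccnd3 was the only marker of high signal with a window. RefSeq windows on build GRCm38.p6 were matched for 7 of the 10 listed genes, with 12 windows in all, and the 250 bases before each start were read. Each sequence runs 5′ to 3′ toward the start. Capitals mark 2 searched motifs, TATANA (the TATA box letters) and TGANTCA (the letters bound by AP-1 factors), on both strands, and overlapping matches run together.
Prl3c1, chr13:27196410-27196659, plus strand: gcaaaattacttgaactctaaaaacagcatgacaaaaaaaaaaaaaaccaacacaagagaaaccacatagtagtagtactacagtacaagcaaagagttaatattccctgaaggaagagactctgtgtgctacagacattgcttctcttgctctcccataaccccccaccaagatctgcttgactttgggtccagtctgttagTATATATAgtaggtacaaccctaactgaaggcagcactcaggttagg
Dio3, chr12:110278980-110279229, plus strand: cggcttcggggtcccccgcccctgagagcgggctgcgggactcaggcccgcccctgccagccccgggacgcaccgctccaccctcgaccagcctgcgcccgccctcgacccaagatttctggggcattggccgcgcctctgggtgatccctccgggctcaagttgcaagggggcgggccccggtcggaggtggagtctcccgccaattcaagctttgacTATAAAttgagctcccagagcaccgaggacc
Il11, chr7:4778142-4778391, minus strand: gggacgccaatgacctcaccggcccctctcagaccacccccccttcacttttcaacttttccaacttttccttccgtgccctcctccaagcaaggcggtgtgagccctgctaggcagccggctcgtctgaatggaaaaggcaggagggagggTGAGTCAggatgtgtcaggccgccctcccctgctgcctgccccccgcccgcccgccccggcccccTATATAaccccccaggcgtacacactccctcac
Ccnd3, chr17:47593217-47593466, plus strand: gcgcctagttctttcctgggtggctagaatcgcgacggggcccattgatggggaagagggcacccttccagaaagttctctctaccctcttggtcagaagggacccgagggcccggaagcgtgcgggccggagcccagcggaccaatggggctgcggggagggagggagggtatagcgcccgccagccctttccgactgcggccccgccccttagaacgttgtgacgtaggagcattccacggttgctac

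The 3 windows of low signal each held TATANA letters, beginning 47 and 45 bases before the start in Prl3c1 (2 overlapping matches), 31 in Dio3 and 33 in Il11. The Ccnd3 window held none, nor did its other window. Of all 32851 windows, 22.6% held those letters. The motif TGANTCA, found 98 bases before the start of Il11, occurred in 6.75% of all windows. CG pairs, whose density marks CpG islands, numbered 0 in the Prl3c1 window, 12 in Il11, 21 in Dio3 and 19 in Ccnd3, and the median window held 6. Prl3c1, Il11 and Ccnd3 each have a second window not shown, with 1, 1 and 11 CG pairs and no match to either motif. The windows shown were chosen after the motifs were counted, and the window of Tdo2 and 1 of those of Alpl also held TATANA, farther from the start (229 and 192 bases). The other window of Alpl, a marker of low signal, held no TATANA and 20 CG pairs. The windows shown therefore do not stand for all markers of low or of high signal. Another motif, CCAAT, was searched on both strands and lay in 33.8% of all windows, among them those of Dio3 (125 and 48 bases before the start), Il11 (244) and Ccnd3 (108). These letters are a description of the windows and not of any factor bound there.

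**Figure D2:**
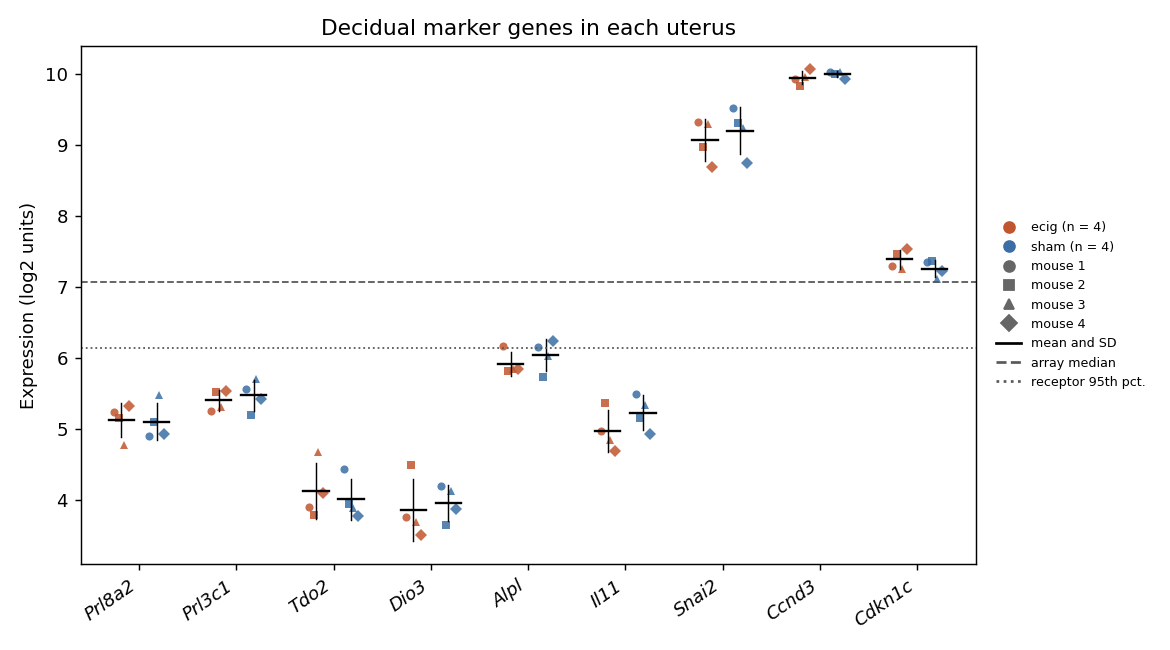
Expression (vertical axis, log2 units) of the 9 measured decidual markers (horizontal axis) in each mouse, ecig in orange left of sham in blue, with means and SD (black, n = 4 each). The 2 groups overlap for 9 of 9 genes, and 6 genes have means below the receptors' 95th percentile (dotted, 6.15).

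Across the 9 measured markers, 0 passed limma's test after adjustment over all probe sets, where 0% of the 22206 probe sets passed, and 0 had an unadjusted p under 0.05, where 5.42% of all probe sets did. The ecig and sham values overlapped for every one of the 9, and they failed to overlap at 2.73% of all probe sets. Means were lower in ecig mice for 6 markers and higher for 3, beside 49.5% lower over all probe sets, and the median difference was -0.07, against 0.0014. For 8 of the 9, all but Cdkn1c, the difference was smaller than the pooled SD between mice of a group. A p that misses the threshold does not show that the groups were alike. For the 3 markers above the receptor range, the 95% interval of the ratio of ecig to sham ran between 0.682 and 1.22 for Snai2, 0.850 and 1.10 for Ccnd3, and 0.936 and 1.28 for Cdkn1c. For the 6 markers in the receptor range, differences and intervals describe probe signal and do not bound a difference in RNA.

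**Figure D3:**
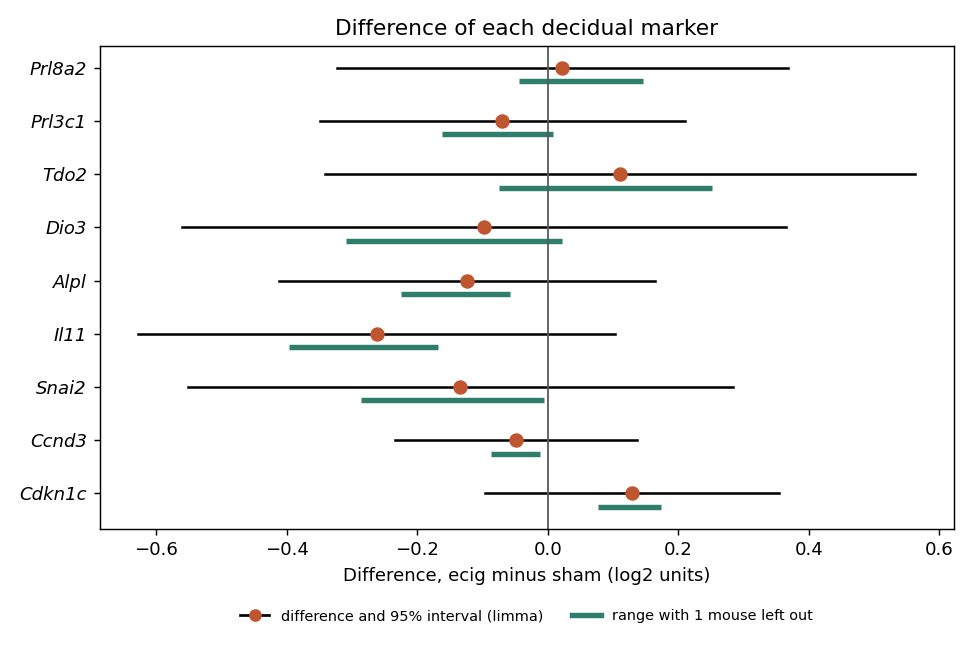
Difference, ecig minus sham (horizontal axis, log2 units), of the 9 measured decidual markers (vertical axis). Points with black lines are limma's estimates with 95% intervals (4 mice each), and green bars span the estimates with 1 mouse left out. All 9 black intervals include 0.

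The decidual prolactins gave a low signal and nearly equal means in both groups. Prl8a2 encodes decidual prolactin-related protein, a hormone secreted by the mouse decidua. It was at 5.24, 5.16, 4.78 and 5.33 log2 units in ecig mice 1 to 4, against 4.91, 5.10, 5.48 and 4.94 in sham mice 1 to 4. The groups overlapped, with sham mouse 3 highest and ecig mouse 3 lowest of the 8. Its difference, ecig minus sham, was 0.02 ± 0.16 log2 units (SE) with limma (adjusted p = 0.987), and its sign turned without ecig mice 2 and 4 (-0.10) and when any of ecig mouse 1, ecig mouse 4, sham mouse 1 or sham mouse 4 was left out (-0.04 to -0.01). The second probe set of the gene averaged 4.69 ± 0.20 in ecig mice and 4.70 ± 0.22 in sham mice (SD, n = 4 each). Prl3c1 encodes a prolactin-like protein of the decidua. It read 5.25, 5.53, 5.31 and 5.54 in ecig mice, against 5.57, 5.20, 5.71 and 5.43 in sham mice. The ecig values lay within the sham range, and the difference was -0.07 ± 0.13 (SE, limma adjusted p = 0.928). Without sham mouse 3 it was 0.0079.

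The other prolactin family genes lay in the same low range. The family is a cluster of related hormone genes, most of which are active in the pituitary or the placenta. Of 24 further members listed, 22 were measured, and 22 of the 22 lay below the receptors' 95th percentile, with means over the 8 mice between 3.21 for Prl7a2 and 5.99 for Prl2c3. None passed limma's test after adjustment, 1 had an unadjusted p under 0.05, and their median difference was 0.03, against 0.0014 for all probe sets. Prl8a8, a placental member, had the smallest p of the family. It averaged 4.38 ± 0.23 in ecig mice and 4.00 ± 0.24 in sham mice (limma adjusted p = 0.838), a level at which the array reads receptor genes too. The genes of this family resemble each other in sequence, so probe sets may share signal.

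**Figure D4:**
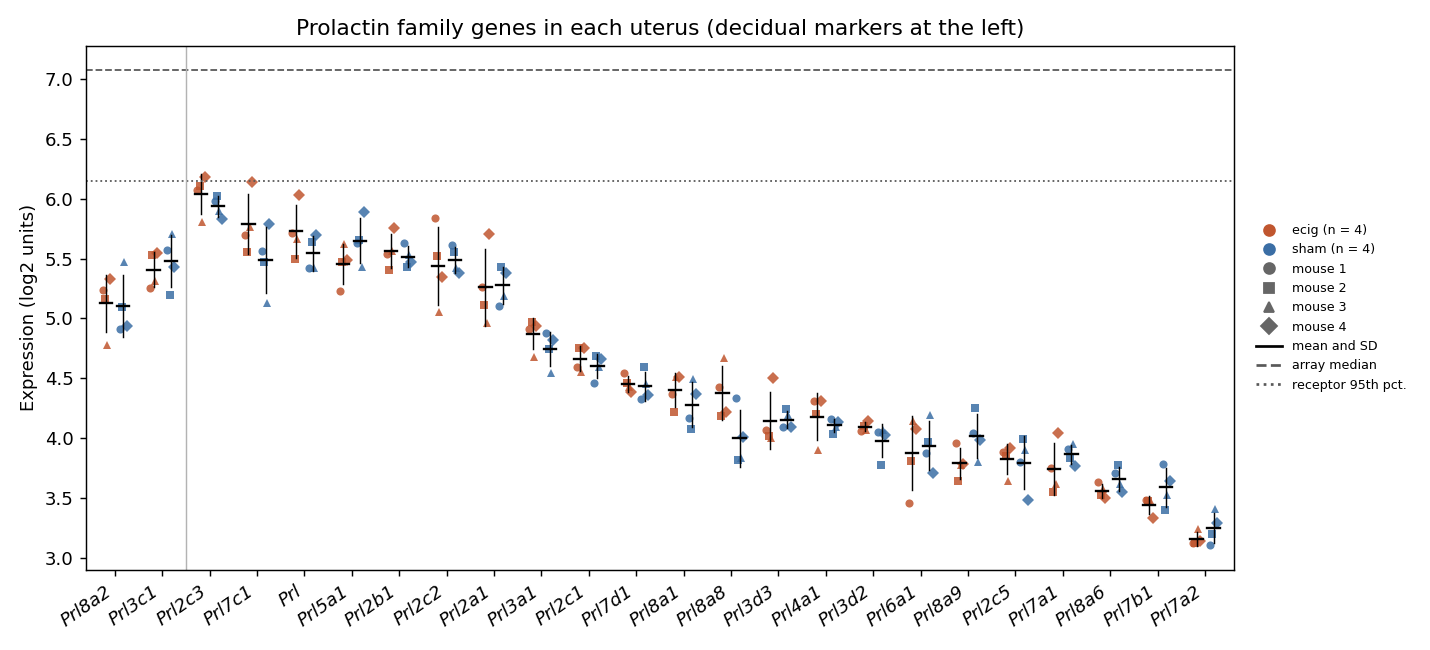
Expression (vertical axis, log2 units) of the 24 measured prolactin family genes (horizontal axis), Prl8a2 and Prl3c1 left of the grey line and the other 22 ordered by mean. Symbols are single mice (ecig in orange left of sham in blue), black bars are means with SD, n = 4 each. All 24 means lie below the receptors' 95th percentile (6.15, dotted).

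The enzyme markers were also low and did not separate the groups. Tdo2 encodes tryptophan dioxygenase, which starts the breakdown of tryptophan to kynurenine and is induced in the rodent decidua. It stood at 3.91, 3.79, 4.68 and 4.11 in ecig mice, against 4.44, 3.95, 3.89 and 3.78 in sham mice. The highest value came from ecig mouse 3 and the next from sham mouse 1, and the other 6 mice lay between 3.78 and 4.11. The difference was 0.11 ± 0.20 (SE, limma adjusted p = 0.929) and was -0.08 without ecig mouse 3, and 64.4% of the receptor probe sets had a mean at or above that of Tdo2. Dio3 is the imprinted deiodinase that inactivates thyroid hormone, abundant at rodent implantation sites. It had 3.76, 4.50, 3.69 and 3.51 in ecig mice, against 4.20, 3.64, 4.12 and 3.88 in sham mice. The highest and the lowest values were both from ecig mice (2 and 4). The difference was -0.10 ± 0.21 (SE, limma adjusted p = 0.943) and was 0.02 without ecig mouse 4, and 71.3% of receptor probe sets were at or above it.

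Alpl encodes the tissue-nonspecific alkaline phosphatase, whose activity is a classical stain for decidua. It was at 6.17, 5.82, 5.85 and 5.84 in ecig mice, against 6.16, 5.74, 6.03 and 6.24 in sham mice. It lay closest to the upper end of the receptor range: 5 of the 8 mice were below 6.15 (3 ecig, 2 sham) and 3 above it. Ecig mice 2, 3 and 4 were nearly level and ecig mouse 1 stood above them, inside the sham range. The difference was -0.12 ± 0.13 (SE, limma adjusted p = 0.874), between -0.23 (without sham mouse 2) and -0.06 (without sham mouse 4) with 1 mouse left out, and -0.03 without ecig mice 2 and 4. The related intestinal and embryonic phosphatases Alpi, Akp3 and Alppl2 also had low means, 5.16, 4.54 and 4.46 over the 8 mice.

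Il11 gave a signal in the receptor range in 8 of 8 mice, and its difference did not pass the test. Il11 encodes interleukin 11, a cytokine of the stroma that mice need to form a full decidua, acting through Il11ra1 and the shared subunit Il6st. It measured 4.98, 5.37, 4.85 and 4.69 in ecig mice, against 5.50, 5.16, 5.34 and 4.93 in sham mice. Ecig mouse 2 lay among the sham values and sham mouse 4 among the ecig values. The difference was -0.26 ± 0.16 (SE), with a 95% interval of -0.63 to 0.10 (limma adjusted p = 0.840). An exact two-sided permutation test over the 70 assignments of mice to groups gave p = 0.229 for Il11, and the smallest p it allows is 0.0286. With 1 mouse left out, the difference lay between -0.40 and -0.17, and it was weakest without ecig mouse 4 (-0.17) and without sham mouse 1 (-0.17). Without ecig mouse 2 it was -0.40, past an unadjusted threshold (limma unadjusted p = 0.0223) and not after adjustment (limma adjusted p = 0.977). Of the other genes of interleukin 11 signalling, Il6st averaged 11.3 over the 8 mice, the kinases Jak1 and Jak2 8.75 and 10.7, and the transcription factor Stat3 9.28, all above the receptor range. Of this list 0 of 8 measured genes passed even an unadjusted p of 0.05 (median difference -0.09).

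The markers with a regulatory role in the nucleus were measured above the receptor range, and none passed the test. Snai2 encodes SLUG, a transcriptional repressor of mesenchymal cells. It reached 9.33, 8.98, 9.30 and 8.69 in ecig mice, against 9.53, 9.31, 9.24 and 8.75 in sham mice. Mouse 4 of each group was the lowest of its group, and the difference was -0.13 ± 0.19 (SE, limma adjusted p = 0.902). Without ecig mice 2 and 4 it was 0.11, and with 1 mouse left out it lay between -0.29 (without sham mouse 4) and -0.0055 (without ecig mouse 4). The mean of the 10 stromal genes was lowest in the same 3 mice as Snai2, with 10.4 in ecig mouse 2, 10.6 in ecig mouse 4 and 10.7 in sham mouse 4, against 10.8 to 10.9 in the other 5, and the part of this in the Snai2 values was not tested.

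Ccnd3 encodes cyclin D3, which drives cells into S phase and is linked to polyploidy in the mouse decidua. To 3 decimals, since its spread was small, it read 9.928, 9.839, 9.967 and 10.067 in ecig mice, against 10.024, 10.001, 10.033 and 9.936 in sham mice. Ecig mouse 4 was the highest and ecig mouse 2 the lowest. It was the least variable marker, with an SD of 0.0729 over the 8 mice, and the difference was -0.05 ± 0.08 (SE, limma adjusted p = 0.924). The interval of the difference, -0.23 to 0.14, is the narrowest of the 9. Cdkn1c encodes an imprinted inhibitor of cyclin-dependent kinases that rises in decidual cells as they leave the cycle. It had 7.30, 7.47, 7.26 and 7.54 in ecig mice, against 7.35, 7.37, 7.11 and 7.22 in sham mice. Ecig mice 2 and 4 were highest and the other 2 ecig mice lay within the sham range. Ecig mice 2 and 4 also had the lowest stromal means and array correlations, whose part in this was not tested. The difference was 0.13 ± 0.10 (SE), with an interval of -0.10 to 0.35 (limma adjusted p = 0.852). Without ecig mice 2 and 4 the difference of Cdkn1c was 0.0169, and with 1 mouse left out it lay between 0.08 (without sham mouse 3 or ecig mouse 4) and 0.17. Cdkn1c was the marker closest to the array median, 0.32 above it in ecig mice and 0.19 above it in sham mice.

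The markers were also set against each other across mice. Of the 36 pairs of markers, Il11 and Dio3 had the strongest correlation over the 8 arrays (r = 0.83, Spearman's rho = 0.81, and r = 0.76 without the 2 mice farthest from the median of Il11), given as a description. Both are low in signal, and all 8 arrays share 1 scaling. The decidual prolactins Prl8a2 and Prl3c1 had r = 0.43 and rho = 0.33 (r = -0.13 without 2 mice). Dio3, Tdo2 and Snai2 had the largest SD over the 8 mice among the markers (0.334, 0.326 and 0.301). Of 17116 named genes, those most like Snai2 were Ccdc8 (r = 0.97, rho = 0.93), Fgf7 (r = 0.97, rho = 0.98) and Mrpl30 (r = 0.96, rho = 0.90). Without the 2 mice farthest from the median of Snai2, r was 0.89, 0.86 and 0.93 for these 3 genes. The genes most like Tdo2 were Mindy2, Npy1r and Tradd (r = 0.97, 0.97 and 0.93, rho = 0.90, 0.71 and 0.81). Without the 2 mice farthest from the median of Tdo2, r was 0.80, 0.78 and 0.62. The genes most like Dio3 were Fndc3c1, Prss43 and Barhl1 (r = 0.93, 0.92 and 0.92, rho = 0.93, 0.74 and 0.86), with r of 0.75, 0.73 and 0.79 without the 2 mice farthest from its median. Npy1r, Fgf7, Fndc3c1, Prss43 and Barhl1 lay in the receptor range. These are the highest of 17116 values over 8 arrays and carry no test.

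Of the 127 further genes measured in the lists around the markers, 4 had higher and 5 lower means in ecig mice at an unadjusted p under 0.05 in limma, together 7.09%, beside 5.42% of all probe sets, and 0 passed after adjustment (adjusted p = 0.838 for each of the 9). This count of 9 was 21 without ecig mouse 1, 5 without sham mouse 2 or without sham mouse 3, and 2 without ecig mice 2 and 4. The cell cycle list, which holds relatives of Ccnd3 and Cdkn1c, had 1 higher and 1 lower of 16 at that threshold (median difference -0.14). By mean alone, 4 were higher and 12 lower. Cdkn1b, a kinase inhibitor of the same family as Cdkn1c, stood at 9.39, 9.95, 9.48 and 10.04 in ecig mice, against 9.29, 9.04, 9.15 and 9.30 in sham mice. Its groups did not overlap, which held for 1 gene of the 127, beside 2.73% of all probe sets, so the count is no result about these genes. Its mean was 1.43-fold higher in ecig mice (0.52 ± 0.15, SE). Without ecig mice 2 and 4 the difference of Cdkn1b was 0.24, and its highest values came from the same 2 mice as those of Cdkn1c. Ccnd2, the sister cyclin of Ccnd3, averaged 8.73 ± 0.38 in ecig mice and 9.29 ± 0.32 in sham mice, with the groups overlapping.

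Among 34 measured regulators of decidualization, 0 were higher and 3 lower at that unadjusted threshold, which 5.42% of all probe sets passed. Their median difference was -0.02. Ptgs2, the inducible cyclooxygenase of prostaglandin synthesis, read 6.11, 5.39, 5.96 and 5.35 in ecig mice, against 6.97, 6.04, 6.28 and 6.99 in sham mice. All 4 ecig values lay below the receptors' 95th percentile and only that of ecig mouse 1 lay above the lowest sham mouse. Sgk1, a progesterone-induced kinase, had 9.23 in ecig mouse 1 and 7.67 to 7.76 in the other 3, against 8.20 to 9.34 in sham mice. Fkbp4, a co-chaperone of the progesterone receptor, lay at 9.72, 9.73, 9.96 and 9.17 in ecig mice, against 9.95, 9.96, 9.96 and 10.15 in sham mice. Without limma's variance moderation, Sgk1 and Fkbp4 missed the threshold (unadjusted p = 0.112 and 0.0865), and Ptgs2 still passed it (unadjusted p = 0.0319). Bmp2, a growth factor needed for decidualization, averaged 5.79 ± 0.37 in ecig mice and 5.61 ± 0.36 in sham mice. Its signal lay in the receptor range in 8 of 8 mice. Of the 34 regulators, 5 had means in that range, Ptgs2 and Bmp2 among them. Hand2, a stromal transcription factor, averaged 7.89 ± 0.20 in ecig mice and 7.83 ± 0.15 in sham mice.

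In the SNAIL, TWIST and ZEB list, 1 of 9 genes was lower and 0 higher at an unadjusted p under 0.05 (median difference -0.06). Over all probe sets, 5.42% passed that threshold. By mean alone, 7 of the 9 were lower and 2 higher. Snai1, the paralogue of Snai2, averaged 7.43 ± 0.32 in ecig mice and 7.81 ± 0.06 in sham mice, with ecig mice 3 and 4 at 7.17 and 7.13. Among 12 further genes of tryptophan breakdown 1 was higher at that threshold (median difference 0.02), and 7 were higher by mean alone. The 1 was Kmo, the kynurenine hydroxylase, at 5.10 ± 0.31 in ecig mice and 4.64 ± 0.28 in sham mice, both in the receptor range. Ido1, which catalyses the same step as Tdo2, averaged 4.54 ± 0.23 in ecig mice and 4.60 ± 0.32 in sham mice. None of 8 genes of thyroid hormone handling passed the unadjusted threshold (median difference -0.01). Dio2, the deiodinase that activates the hormone Dio3 removes, lay at 8.74 ± 0.47 in ecig mice and 9.15 ± 0.71 in sham mice, where sham mouse 4 reached 10.15. Among 15 other imprinted genes 1 was higher at that threshold (median difference 0.02), and 8 were higher by mean alone. The 1 was Sgce, at 9.39 ± 0.17 in ecig mice and 9.11 ± 0.07 in sham mice. None of 3 further phosphatase genes passed (median difference -0.11).

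**Figure D5:**
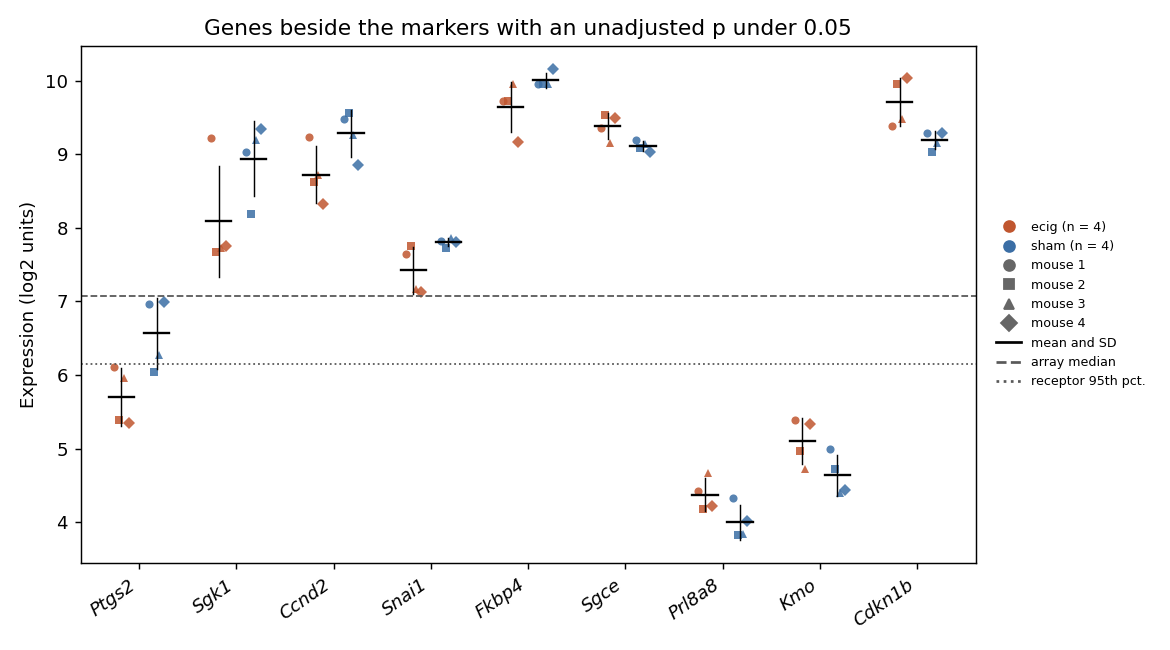
Expression (vertical axis, log2 units) of the 9 genes outside the decidual markers with an unadjusted p under 0.05 (horizontal axis, ordered by difference), ecig in orange left of sham in blue, with means and SD (n = 4 each). The groups overlap for 8 of the 9 genes, and only for Cdkn1b do the 4 ecig mice lie above the 4 sham mice.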

How the data were processed

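Whole uterus RNA of 8 mice was labelled with biotin and run on 8 Affymetrix arrays, per the labels' protocols. The deposited table, made by the authors, holds log2 values of 22206 probe sets on 8 arrays. The log2 scale was read from the values, which run from 2.75 to 13.6. Per the submitters' processing notes, Partek was used. For background correction and array scaling, the method is not stated in the labels or notes read here. After sorting, arrays differ nowhere by more than 0.0198, a common distribution in which a shift shared by all genes shows as 0, and no normalization was added. Gene names came from the platform annotation (19572 probe sets with 1 symbol, 2634 with none). Promoter windows are RefSeq's on GRCm38.p6, a build not named for the arrays.

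Ecig minus sham differences came from limma 3.58.1 under R 4.3.3 (lmFit and eBayes without covariates) over all probe sets with Benjamini-Hochberg adjustment and a threshold of 0.05, and the fit was tested on simulated data. The members and lists were chosen with earlier results of these data known, so no list is independent evidence. Named were all members, the 3 genes of smallest p in each list, paralogues of members and, for the 3 members of largest SD, the 3 genes of highest correlation. Genes of the cell type lists, Bmp2, Hand2, Il6st, Jak2, Stat3, Prl7a2 and Prl2c3 were chosen after their values were seen. The number of arrays limits the precision, and signal over background per probe set was not used here. Replicate numbers in the labels do not pair mice.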

Additional observations from a re-analysis of the deposited data

Results flagged for a closer look

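Dixon's test for 1 mouse far from the other 3 of its group was run on 60 named genes in both groups, 120 groups of 4, and marked 10, where chance gives about 1 in 20. One is a decidual marker: Alpl in ecig mouse 1 was 6.17, against 5.82 to 5.85 in the other ecig mice. Among regulators, Sgk1 in ecig mouse 1 was 9.23 (others 7.67 to 7.76) and Fkbp4 in sham mouse 4 was 10.15 (others 9.95 to 9.96). Jak1 in ecig mouse 2 was 8.32 (others 8.75 to 8.78). Peg3, an imprinted gene, was 6.57 in sham mouse 1 (others 6.03 to 6.11). In tryptophan breakdown, Kynu in sham mouse 2 was 3.81 (others 3.52 to 3.56) and Kyat1 in ecig mouse 1 was 8.03 (others 8.43 to 8.47). In the prolactin family, Prl3d2 in sham mouse 2 was 3.77 (others 4.02 to 4.07), Prl3d3 in ecig mouse 4 was 4.51 (others 4.00 to 4.07) and Prl7b1 in ecig mouse 4 was 3.33 (others 3.48 to 3.49).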

How the results depend on the processing

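Of 161 recomputed differences of single markers, 10 changed direction and 1 passed an unadjusted p of 0.05, while 0 markers passed after adjustment under any alternative run. The filters, the changes to variance moderation and the replicate block cannot change a difference. Renormalization hardly could, as the arrays already shared a distribution. All 10 changes came with array weights or with mice left out, so 10 of 161 is no measure of how stable the directions were. Prl8a2 was -0.0217 with array weights and -0.10 without ecig mice 2 and 4, and Snai2 was 0.11 without those mice. With 1 mouse left out, differences ranged from -0.0444 to 0.15 for Prl8a2, -0.16 to 0.00786 for Prl3c1, -0.0754 to 0.25 for Tdo2, -0.31 to 0.0217 for Dio3, -0.40 to -0.17 for Il11 and 0.08 to 0.17 for Cdkn1c. The number of markers past an unadjusted p of 0.05 ranged from 0 to 1 with 1 mouse left out, the 1 being Il11 without ecig mouse 2. Dropping probe sets under the 25th or the 50th percentile in mean left 4 and 3 markers in the fit, of which 3 and 2 had lower means in ecig mice, against 6 of 9 unfiltered, because fewer genes were tested. Of the further genes, 9 had an unadjusted p under 0.05, 3 without variance moderation, 2 without ecig mice 2 and 4, and 5 to 21 with 1 mouse left out. The causes were not tested. Without ecig mice 2 and 4, Akp3 was 0.0590 and Thrb, a thyroid hormone receptor gene, -0.0436. With 1 mouse left out, Akp3 ranged from -0.222 to 0.00131 and Alppl2 from -0.0693 to 0.124. With the replicate number as a block, 0 markers passed an unadjusted p of 0.05. The count of 6 lower means could not change there, since each number occurs once in each group. The deviations of same-numbered mice correlated between -0.24 and 0.08, so the numbers were not treated as pairs. The count of markers in the receptor range was 5 at the receptors' 90th percentile and 6 at their 99th, a setting chosen after seeing the data.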
